A study of Mus musculus with 11 samples.

Results

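The genes described here build the extracellular matrix of the adult brain, including the perineuronal nets, and were followed in RNA from mouse hypothalamus. They were chosen by symbol and number 10 of the 14864 genes in the deposited table: Ncan, Bcan, Acan, Vcan, Tnr, Hapln1, Hapln2, Hapln4, Cspg5 and Ptprz1. Each was found once and in all 11 libraries. The choice was made with genotype results of the same table known, so counts over these genes are a description and support nothing by themselves. Each gene is therefore placed in a fit over the whole transcriptome.

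The libraries came from mice of postnatal day 60 to 70. The study concerns loss of MYT1L, a neuronal transcription factor with zinc fingers. The group labelled Het held 6 libraries (3 females and 3 males), and the wild type (WT) group held 5 (2 females and 3 males). The sources used here describe neither the allele nor the strain. Values are CPM, corrected counts of a gene scaled by 1 factor per library, recovered from the deposited log2 table. The columns of that table share an upper quartile (5.47 on the log2 scale) and not a common total. The corrected counts totalled 22921048 to 24941704 per library. Myt1l itself averaged 76.3 ± 26.9 CPM in libraries labelled Het (SD, n = 6) and 76.3 ± 15.9 CPM in libraries labelled WT (SD, n = 5). The library labelled Het replicate 9 had 130 CPM of Myt1l, the highest of all, and the library labelled WT replicate 11 had 51.1 CPM, the lowest. Groups are as labelled throughout, and results that rest on these libraries are also given without them. The dissected piece held hypothalamic tissue by its markers: the vasopressin gene Avp ranged over 215 to 462 CPM in Het and 359 to 555 CPM in WT.

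Brain matrix is poor in fibrous collagen and rich in hyaluronan, a long sugar chain. Lecticans (aggrecan, brevican, neurocan and versican, encoded by Acan, Bcan, Ncan and Vcan) are proteoglycans that carry chondroitin sulfate and grip hyaluronan at one end. Link proteins of the Hapln family clamp that contact, and the tenascin encoded by Tnr ties lecticans to each other at the far end. Around fast-spiking and other neurons the assembly condenses into perineuronal nets, which limit plasticity in the adult brain, while glia and their precursors make much of the looser matrix.

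Ncan rose in Het hypothalamus by 1.54 fold, and it was the single gene of the 9 tested that passed the threshold of an adjusted p of 0.05. Its values in the libraries labelled Het were 148, 157, 155, 156, 159 and 184 CPM (replicates 2, 4, 7, 5, 8 and 9), against 111, 99.6, 87.9, 98.3 and 125 CPM in those labelled WT (replicates 4, 6, 3, 7 and 11). Every Het library lay above every WT library. Neurocan is a secreted lectican made by astrocytes and neurons, and its gene (ENSMUSG00000002341) lies on the minus strand of mm10 chromosome 8 from 70093085 to 70120873. Its mean was 160 ± 12.3 CPM in Het (SD, n = 6) and 104 ± 13.9 CPM in WT (SD, n = 5), a difference of 0.63 on the log2(CPM + 0.5) scale (SE 0.081, 95% interval 0.45 to 0.80, limma adjusted p = 0.00292). By p-value it ranked 3 among 13184 genes tested. For comparison, 3.44% of all genes tested passed the threshold in either direction, 2.3% were higher in Het, and 3.35% had groups that did not overlap (2.02% with Het above WT and 1.33% with Het below). The other 8 genes tested did not pass. Of the 9, 3 had an unadjusted limma p under 0.05 (Ncan, Vcan and Bcan), as did 2938 of all 13184 genes tested. Over the 9 genes, 5 differences were positive and 4 negative with a median of 0.0012, beside a median of -0.016 over all genes tested. In tissue pieces, more cells of a type and more RNA per cell cannot be told apart.

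**Figure D1:**
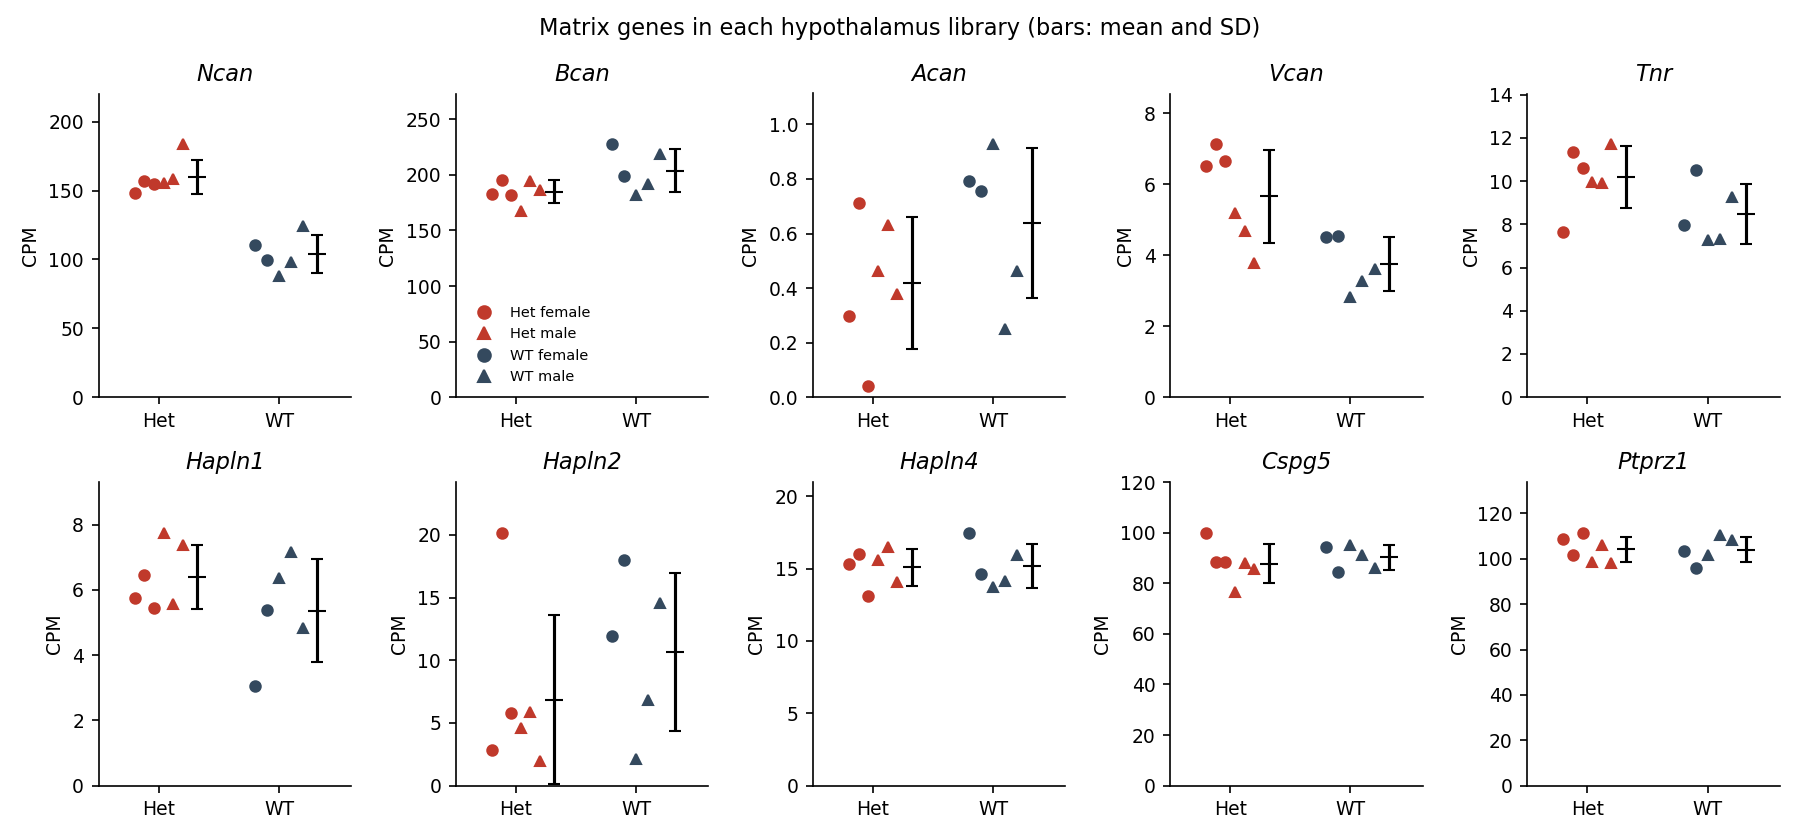
Level of each of the 10 genes in CPM (vertical axes, each starting at 0) in every library, Het on the left and WT on the right of each panel, with circles for females, triangles for males and bars for mean and SD. The 6 Het values of Ncan, from 148 to 184 CPM, lie above the 5 WT values, while Hapln2 spreads from 1.93 to 20.2 CPM within Het.

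The promoters of 3 genes are shown, since Ncan is the gene that passed and the promoters of Bcan and Hapln1 are the ones that hold AAGTT, the core sequence bound by the MYT1 family of zinc finger proteins. The windows run from 250 bases before to 50 bases after the RefSeq start of build GRCm38.p6, printed 5′ to 3′ on the gene's strand, with AAGTT on either strand in capitals. Ncan is chr8:70120795-70121094 (minus), Bcan is chr3:88000307-88000606 (minus) and Hapln1 is chr13:89540386-89540685 (plus).
Ncan: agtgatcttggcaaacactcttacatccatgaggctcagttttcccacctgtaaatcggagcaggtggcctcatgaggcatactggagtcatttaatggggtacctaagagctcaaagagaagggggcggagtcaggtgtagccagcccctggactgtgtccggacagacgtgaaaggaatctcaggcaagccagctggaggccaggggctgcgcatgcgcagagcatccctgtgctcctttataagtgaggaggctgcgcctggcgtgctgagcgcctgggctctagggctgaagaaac
Bcan: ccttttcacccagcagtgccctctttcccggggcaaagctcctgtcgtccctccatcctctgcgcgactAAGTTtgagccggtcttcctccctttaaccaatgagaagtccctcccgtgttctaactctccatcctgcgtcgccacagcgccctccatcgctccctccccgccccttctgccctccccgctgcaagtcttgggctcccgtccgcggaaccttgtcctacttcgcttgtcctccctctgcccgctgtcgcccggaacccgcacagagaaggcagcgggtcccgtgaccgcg
Hapln1: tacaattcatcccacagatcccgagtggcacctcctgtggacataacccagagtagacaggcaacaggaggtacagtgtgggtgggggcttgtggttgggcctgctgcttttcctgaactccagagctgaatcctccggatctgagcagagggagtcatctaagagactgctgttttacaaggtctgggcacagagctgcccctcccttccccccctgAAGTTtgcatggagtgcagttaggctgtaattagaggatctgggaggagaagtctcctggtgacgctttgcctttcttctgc
Of the 8 genes of the list with a promoter entry, 2 held the motif, beside 39.3% of all 32851 promoters of the same length and 31.9% of those of genes in the expression table. The Ncan window held none in either direction. Such a match is a description of letters and says nothing of binding.

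Among the lecticans the order of levels was steep. Per kb of the longest annotated transcript, Bcan was highest at 61.6 ± 5.50 CPM per kb (SD over all 11 libraries), followed by Ncan at 18.7 ± 4.38, Vcan at 0.386 ± 0.116 and Acan at 0.0706 ± 0.0366 CPM per kb. The ranges of these 4 genes over the libraries did not overlap. The membrane proteoglycans lay between, with Ptprz1 at 12.9 ± 0.649 and Cspg5 at 11.3 ± 0.802 CPM per kb, and their ranges overlapped each other. Ptprz1 and the WT libraries of Ncan also overlapped on this scale. Of the linking proteins, Hapln4 had 4.15 ± 0.363, Hapln2 had 3.68 ± 2.78, Hapln1 had 1.04 ± 0.233 and Tnr had 0.771 ± 0.133 CPM per kb, and each of these overlapped the next in order. When the length of all merged exons was used, Cspg5 stood above Ptprz1, at 8.83 against 7.31 CPM per kb.

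**Figure D2:**
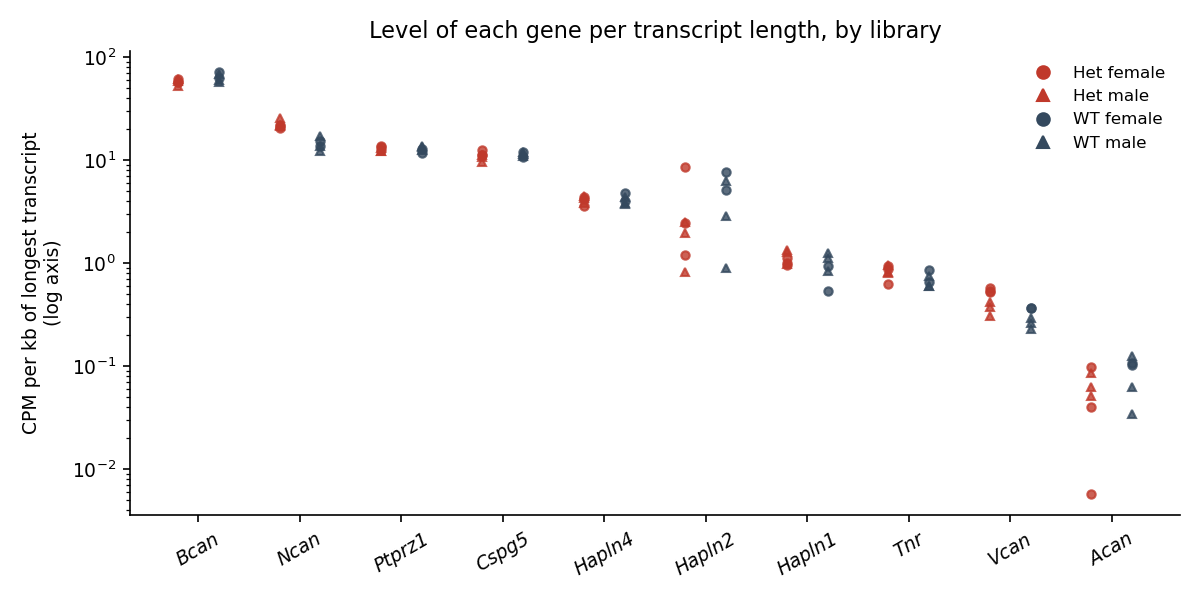
Level of each gene as CPM per kb of its longest transcript (log axis), with 1 point per library and Het left of WT for each gene. Bcan is highest at a mean of 61.6 CPM per kb, Acan lowest at 0.0706 CPM per kb, and Hapln2 has the widest column of points among the genes above Acan.

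Brevican, a lectican that glia and neurons both supply, was slightly lower in Het without passing. Bcan (ENSMUSG00000004892, chromosome 3 from 87987531 to 88000230) had 183, 196, 182, 167, 195 and 186 CPM in Het replicates 2, 4, 7, 5, 8 and 9, against 228, 199, 182, 192 and 219 CPM in WT replicates 4, 6, 3, 7 and 11. The groups overlapped, with means of 185 ± 10.4 CPM in Het and 204 ± 19.1 CPM in WT. The log2 difference was -0.14 (SE 0.064, 95% interval -0.28 to -0.0091, limma adjusted p = 0.194). Within each library the ratio of Ncan to Bcan, which does not depend on library scaling, was 0.802 to 0.986 in Het and 0.484 to 0.569 in WT. Ncan supplied 43.5 to 49.1% of the CPM of the 4 lecticans in Het and 32.2 to 35.8% in WT, while their summed level overlapped between Het (328 to 374 CPM) and WT (273 to 348 CPM). The ratio and these shares restate the Ncan values and are no separate evidence.

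Versican, a lectican of oligodendrocyte precursors and of developing tissue, was higher in Het within each sex, but it did not pass. Vcan (ENSMUSG00000021614, chromosome 13 from 89655312 to 89742509) had 6.51, 7.13 and 6.67 CPM in Het females (replicates 2, 4 and 7), against 4.51 and 4.53 CPM in WT females (replicates 4 and 6). In males it had 5.20, 4.67 and 3.78 CPM in Het (replicates 5, 8 and 9), against 2.83, 3.27 and 3.61 CPM in WT (replicates 3, 7 and 11). The genotypes were separate in females and in males, and they overlapped only when the sexes were put together. The log2 difference was 0.48 (SE 0.14, 95% interval 0.18 to 0.77, limma adjusted p = 0.068). Ncan and Vcan were the 2 genes of the 9 that were above WT in both sexes without overlap, a pattern that 3.88% of all genes tested showed (7.48% were separate in both sexes in the same direction, up or down). Markers of oligodendrocyte precursors, the cells in which Vcan is known to be made, summed to 159 to 178 CPM in Het and 154 to 178 CPM in WT. The largest part of these sums was Lhfpl3 (56.5 CPM in Het, 57.9 CPM in WT). Of 10 such markers 7 had a positive difference and 1 passed. This was Gpr17, a receptor of differentiating precursors, at 18.0 ± 1.96 CPM in Het and 14.2 ± 1.13 CPM in WT (log2 difference 0.35, limma adjusted p = 0.0442). Once the 2 doubtful libraries were dropped its log2 difference was 0.36 and it was not called (limma adjusted p = 0.0875), and Vcan was 0.57 (limma adjusted p = 0.0603). Cspg4, counted with the matrix genes and not with these markers, had 6.86 ± 1.39 CPM in Het and 4.78 ± 0.842 CPM in WT. Its groups overlapped and it did not pass (log2 difference 0.45, limma adjusted p = 0.113).

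Aggrecan, the lectican that most marks perineuronal nets, was near the limit of detection. Acan (ENSMUSG00000030607, chromosome 7 from 79053483 to 79115099) had 1 to 17 corrected counts per library in Het and 6 to 22 in WT, or 0.0419 to 0.713 CPM in Het and 0.252 to 0.928 CPM in WT. The groups overlapped in part: WT replicates 3, 4 and 6 lay above the highest Het library, and Het replicate 7 lay below the lowest WT library. Its mean over all libraries was under 1 CPM, so it was left out of the main fit. It was tested only in the alternative run without this filter, where it did not pass.

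None of the link protein genes passed. In the mouse genome each link protein gene neighbours a lectican gene with no protein-coding gene between them: Hapln4 lies 2.22 kb from Ncan, Hapln2 lies 21.5 kb from Bcan, and Hapln1 lies 43.7 kb from Vcan. Hapln4 (ENSMUSG00000007594, chromosome 8 from 70083457 to 70090862), a link protein of perineuronal nets, had 15.3, 16.0, 13.1, 15.6, 16.5 and 14.1 CPM in Het replicates 2, 4, 7, 5, 8 and 9, against 17.5, 14.6, 13.7, 14.2 and 15.9 CPM in WT replicates 4, 6, 3, 7 and 11. The groups overlapped, and the log2 difference was -0.0091 (SE 0.10, 95% interval -0.22 to 0.21, limma adjusted p = 0.968). The ratio of Ncan to its neighbour Hapln4 was 9.61 to 13.0 in Het and 6.32 to 7.82 in WT. Since Hapln4 hardly differed, this ratio restates the Ncan values and is no separate evidence.

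Hapln1 (ENSMUSG00000021613, chromosome 13 from 89539796 to 89611652), the link protein of cartilage and of perineuronal nets, averaged 6.39 ± 0.985 CPM in Het and 5.36 ± 1.58 CPM in WT. It ran from 5.45 to 7.76 CPM in Het, with a median of 6.10, and from 3.05 to 7.17 CPM in WT, with a median of 5.37. The lowest value was WT replicate 4, a female. The log2 difference was 0.30 (SE 0.17, 95% interval -0.048 to 0.66, limma adjusted p = 0.296), and Hapln1 did not pass. The fourth link protein gene, Hapln3, which lies beside Acan, had 1.198 ± 0.449 CPM in Het and 1.63 ± 0.238 CPM in WT and did not pass either (limma adjusted p = 0.339).

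Hapln2, the link protein that oligodendrocytes place at nodes of Ranvier, spread widely between animals within each genotype. Hapln2 (ENSMUSG00000004894, chromosome 3 from 88021750 to 88027583) had 2.83, 20.2, 5.79, 4.57, 5.89 and 1.93 CPM in Het replicates 2, 4, 7, 5, 8 and 9, against 11.9, 18.0, 2.11, 6.79 and 14.6 CPM in WT replicates 4, 6, 3, 7 and 11. Het replicate 4 was the highest of all libraries and Het replicate 9 the lowest, a ratio of 10.4, and both groups covered nearly the whole range. The SD of its log2 level over the libraries was 1.10, beside a median of 0.209 over all genes tested, and 6 of 13184 genes had a larger one. The log2 difference was -0.79 with an SE of 0.45 (95% interval -1.73 to 0.15, limma adjusted p = 0.309), and -0.37 without the 2 libraries in doubt. It was 0.38 within identifier prefix 14308 and -1.83 within prefix 14309, and neither passed. The 12 markers of mature oligodendrocytes summed to 9878 to 14450 CPM in Het and 10530 to 12270 CPM in WT, and the myelin gene Mbp ranged over a ratio of 1.65. Het replicate 9, lowest for Hapln2, had the highest marker sum. Bcan, its neighbour, ranged over a ratio of 1.36.

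**Figure D3:**
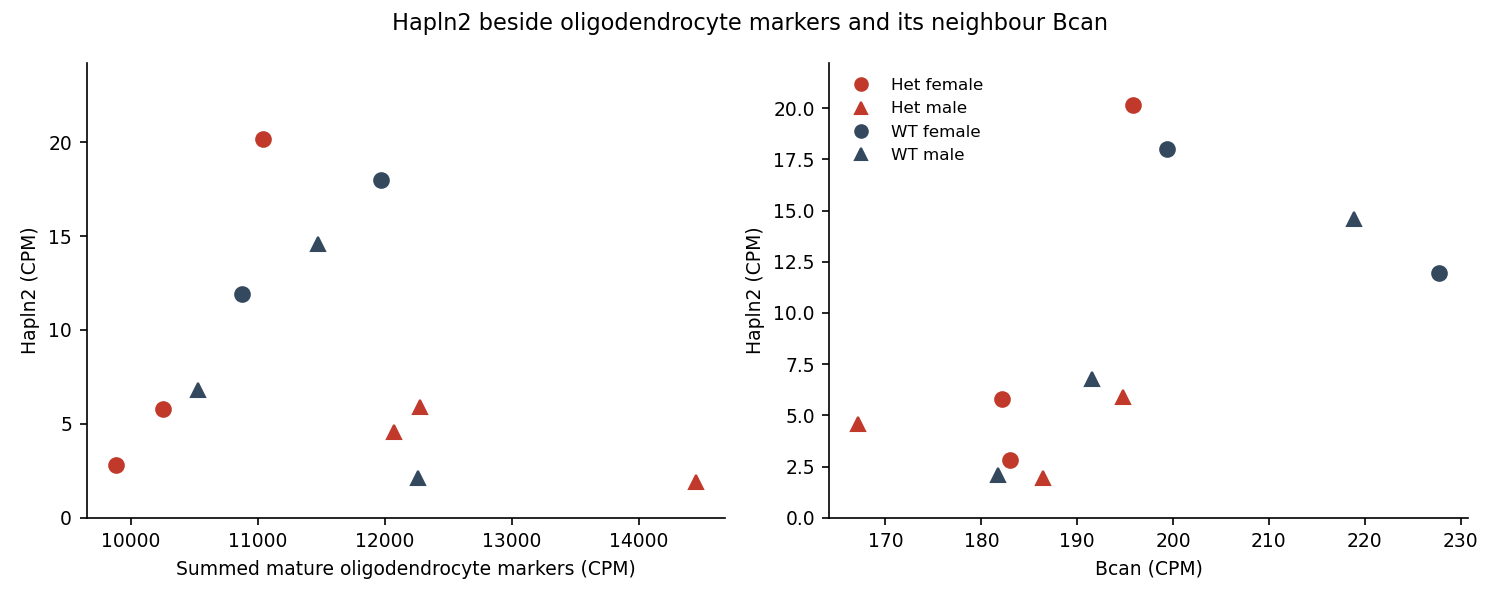
Hapln2 in CPM (vertical axes) against the summed CPM of 12 mature oligodendrocyte markers (left) and against Bcan in CPM (right), with 1 point per library coloured by genotype and shaped by sex. Hapln2 runs from 1.93 to 20.2 CPM while Bcan runs from 167 to 228 CPM, and the library with the highest marker sum, 14450 CPM, has the lowest Hapln2.

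Tenascin-R, the protein that cross-links lecticans and is made by oligodendrocytes and some neurons, did not pass. Tnr (ENSMUSG00000015829, chromosome 1 from 159523769 to 159931729) had 7.65, 11.4, 10.6, 9.98, 9.89 and 11.7 CPM in Het replicates 2, 4, 7, 5, 8 and 9, against 7.97, 10.5, 7.30, 7.34 and 9.24 CPM in WT replicates 4, 6, 3, 7 and 11. In males the genotypes were separate and in females they overlapped. In females alone, Hapln1 was likewise separate with Het above WT, and Bcan with Het below. The share of all genes separate in 1 sex was not counted, so these separations are a description only. The log2 difference of Tnr was 0.25 (SE 0.14, 95% interval -0.039 to 0.54, limma adjusted p = 0.293). An antisense gene, Gm38039, overlaps 443 bases of its exons, and the sources do not say whether reads were assigned by strand.

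The membrane proteoglycans were the steadiest genes of the list. Ptprz1 (ENSMUSG00000068748, chromosome 6 from 22875502 to 23052916), a receptor phosphatase whose secreted form is the proteoglycan phosphacan, averaged 104 ± 5.47 CPM in Het and 104 ± 5.58 CPM in WT. Its range was 98.4 to 112 CPM in Het (median 104) and 96.1 to 110 CPM in WT (median 103). The log2 difference was 0.0012 (SE 0.059, 95% interval -0.12 to 0.13, limma adjusted p = 0.993). With 1 residual degree of freedom taken off, the SE was 0.066. Cspg5 (ENSMUSG00000032482, chromosome 9 from 110243783 to 110262576), which encodes neuroglycan C, averaged 87.8 ± 7.56 CPM in Het and 90.2 ± 4.90 CPM in WT. It ran from 76.4 to 100.05 CPM in Het (median 88.1) and from 84.4 to 95.1 CPM in WT (median 91.3). Its log2 difference was -0.049 (SE 0.067, 95% interval -0.19 to 0.092, limma adjusted p = 0.707). The ratio of Ncan to Ptprz1 was 1.37 to 1.87 in Het and 0.863 to 1.15 in WT, which restates the Ncan values and is no separate evidence. Set against Slc1a2, an astrocyte glutamate transporter gene that itself rose, Ncan overlapped, with ratios of 0.741 to 0.839 in Het and 0.489 to 0.822 in WT.

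**Figure D4:**
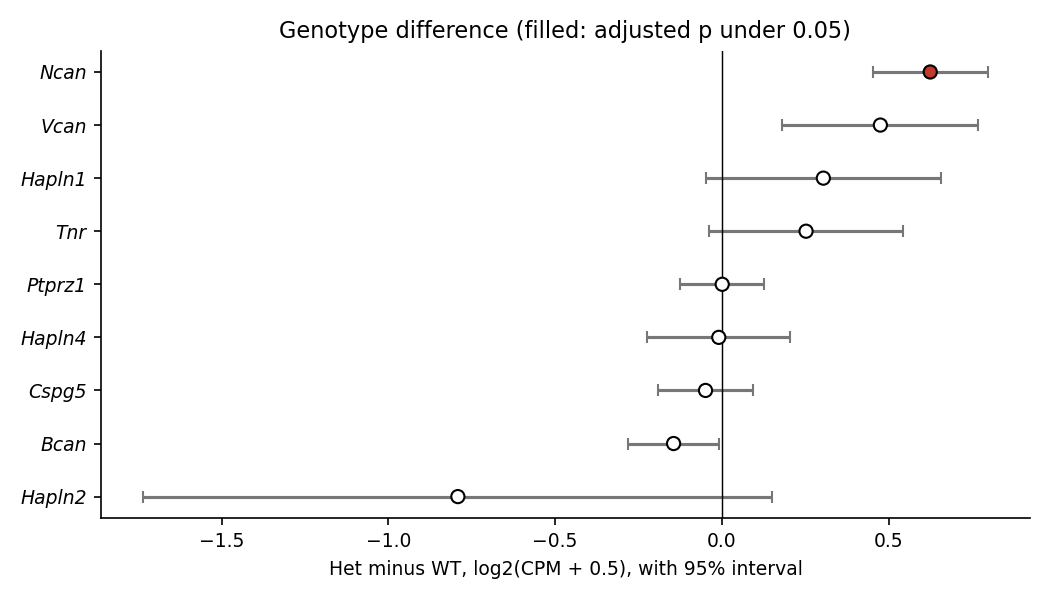
Het minus WT difference of the 9 genes tested on the log2(CPM + 0.5) scale (horizontal axis) with its 95% interval, the filled point marking an adjusted p under 0.05. Ncan stands at 0.63, Vcan at 0.48 and Hapln2 at -0.79 with the widest interval, from -1.73 to 0.15.

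Ncan passed whichever library was left out, with log2 differences of 0.56 to 0.69 and limma adjusted p-values of 0.00075 to 0.0147. Without the libraries labelled WT replicate 11 and Het replicate 9 it was 0.64 (limma adjusted p = 0.00264). Within prefix 14308 (2 Het and 2 WT males) the difference was 0.75 and within prefix 14309 (4 Het and 2 WT of both sexes) it was 0.60, with limma adjusted p-values of 0.019 and 0.0195. The prefixes are the first part of the sample descriptions, and what they stand for is not stated. In the fit with an interaction term the difference in males was 0.69 (limma adjusted p = 0.0335) and in females 0.54, which did not pass (limma adjusted p = 0.108). The difference in females minus that in males was -0.14 with a limma adjusted p of 0.982.

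Several markers of the striatum, another forebrain region, rose in Het. Their sum was 2379 to 4269 CPM in Het and 2040 to 2607 CPM in WT. Of 14 markers 6 rose and 8 did not pass, all 14 differences were positive, and the median log2 difference was 0.45. Drd1, the D1 dopamine receptor gene, was one of the 6, at 43.3 ± 9.50 CPM in Het and 25.5 ± 5.53 CPM in WT. The groups overlapped in the marker sum. Its largest parts were Penk (mean 1471 CPM in Het, 1125 CPM in WT) and Tac1 (519 and 496 CPM). For Drd1, Pde10a and Adcy5 every Het library lay above every WT library, and the other markers overlapped. Het replicates 5 and 7 had marker sums of 2379 and 2427 CPM, below the 2446 and 2607 CPM of WT replicates 7 and 11. Ncan was 156 and 155 CPM in the former and 98.3 and 125 CPM in the latter. Het replicate 9 was highest in both the sum and Ncan. These libraries were picked after their values were seen and are a description only. Over all libraries, Ncan per 100 CPM of summed striatal markers was 4.31 to 6.54 CPM in Het and 4.02 to 5.07 CPM in WT, which overlapped. With the striatal mean as a covariate the Ncan difference was 0.38 with an SE of 0.10, not past the threshold (limma adjusted p = 0.0982), and 9 genes passed in the whole table. Astrocyte markers summed to 5338 to 5736 CPM in Het and 5384 to 6284 CPM in WT, and Aldoc was the largest part (mean 2853 CPM in Het, 3144 CPM in WT). Of the 12, 5 differences were positive. Slc1a2, a glutamate transporter gene, was higher, Gjb6, a connexin gene, was lower (-0.24 on the log2 scale), and 10 did not pass. Once the 2 doubtful libraries were dropped Gjb6 was -0.22 and not called. Hypothalamic peptide genes had sums of 2778 to 4094 CPM in Het and 3829 to 4791 CPM in WT, and 5 of 12 fell (3 without the 2 libraries in doubt, where all 6 striatal markers still passed). All 12 differences were negative, with a median of -0.32 on the log2 scale. The part of the dissected region in the Ncan difference was not tested beyond this covariate.

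**Figure D5:**
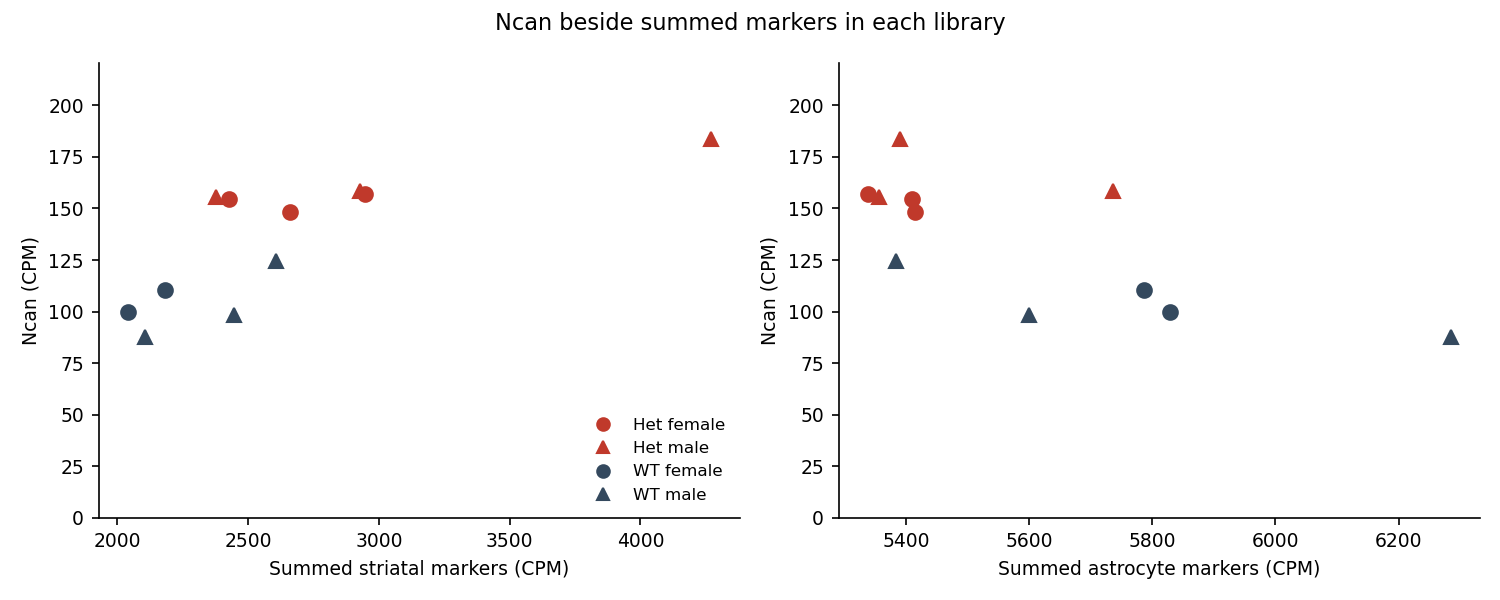
Ncan in CPM (vertical axes, starting at 0) against the summed CPM of 14 striatal markers (left) and of 12 astrocyte markers (right), with 1 point per library coloured by genotype and shaped by sex. The Het libraries lie at 148 to 184 CPM of Ncan over marker sums that overlap those of WT, and the library at 4269 CPM of striatal markers is also highest in Ncan.

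Of 8 markers of fast-spiking neurons, which perineuronal nets surround, 1 rose and 7 did not pass. Their sums were 1240 to 1493 CPM in Het and 1191 to 1303 CPM in WT. Most of these sums came from Cplx1 (647 CPM in Het, 597 CPM in WT) and Tac1 (519 and 496 CPM), which is also in the striatal list. Pvalb averaged 82.7 CPM in Het and 82.8 CPM in WT. The gene that rose was Kcna1, a potassium channel gene, at 18.3 ± 2.78 CPM in Het and 12.1 ± 0.754 CPM in WT (log2 difference 0.57, limma adjusted p = 0.0121). None of 10 general neuron markers, 8 microglial markers and 8 endothelial and mural markers passed. Of 7 fibroblast markers Dcn fell and 6 did not pass, with sums of 88.8 to 230 CPM in Het and 160 to 200 CPM in WT.

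Around these genes, other parts of the matrix machinery were mostly within the spread. Of 86 further matrix genes listed by role, 72 were tested, 2 rose, 2 fell and 68 did not pass, with a median log2 difference of 0.041. That is 5.56% called, beside the 3.44% of all genes. The 2 that rose bind matrix at the neuronal surface: Ncam1, an adhesion molecule, had 445 ± 18.4 CPM in Het and 388 ± 10.9 CPM in WT (log2 difference 0.20, limma adjusted p = 0.0339), and Nptxr, a pentraxin receptor of synapses, had 42.7 ± 2.04 CPM in Het and 33.6 ± 6.25 CPM in WT (log2 difference 0.37, limma adjusted p = 0.0376). Mdk, the growth factor midkine and a ligand of Ptprz1, fell to 75.6 ± 3.35 CPM in Het, against 87.7 ± 8.35 CPM in WT (log2 difference -0.22, limma adjusted p = 0.0391). Dcn, the small proteoglycan decorin made by fibroblasts, fell to 49.5 ± 9.64 CPM in Het, against 61.7 ± 2.97 CPM in WT (log2 difference -0.36, limma adjusted p = 0.0321). In the 11 runs that each left out 1 library, Dcn passed in 5, Ncam1 in 4, Nptxr in 3 and Mdk in 2. Without the 2 libraries in doubt Nptxr was 0.46 and passed (limma adjusted p = 0.0343). The other 3 kept their direction but did not pass, with log2 differences of 0.17 for Ncam1, -0.22 for Mdk and -0.35 for Dcn (limma adjusted p = 0.0964, 0.0837 and 0.0837).

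Enzymes that build or cut the matrix did not pass. None of 18 genes for chondroitin sulfate chains was called, and the one with the smallest p was Csgalnact2, which starts the chain, at 7.59 ± 0.623 CPM in Het and 5.58 ± 1.43 CPM in WT (limma adjusted p = 0.0974), followed by B3gat3 of the linker sugars (limma adjusted p = 0.271). None of 5 hyaluronan genes was called, with Hyal1, a hyaluronidase, and Cd44, a hyaluronan receptor, first by p (limma adjusted p = 0.31 and 0.524). None of 15 proteases and inhibitors was called. Adamts4, an aggrecanase that cuts lecticans, had 18.6 ± 2.55 CPM in Het and 13.2 ± 2.30 CPM in WT (log2 difference 0.48, limma adjusted p = 0.0513). Timp4, a protease inhibitor of astrocytes, had 189 to 216 CPM in Het, all below the 219 to 256 CPM of WT, with a log2 difference of -0.21 (limma adjusted p = 0.0521). Both lay just outside the threshold, and of 29 alternatives Adamts4 passed in 6 and Timp4 in 5. Among 14 other matrix proteoglycans, Dcn fell and 13 did not pass.

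Between the sexes none of the 9 genes passed, with limma adjusted p-values of 0.176 to 0.983, and 0.197% of all genes tested did. Vcan had the smallest p of the 9, at 5.87 ± 1.25 CPM in females and 3.89 ± 0.887 CPM in males (SD, n = 5 and 6), which differed by 0.49 on the log2 scale (limma adjusted p = 0.176, SE 0.14). Hapln2 averaged 11.7 ± 7.50 CPM in females and 5.98 ± 4.65 CPM in males (log2 difference 0.99, limma adjusted p = 0.386). Hapln1 averaged 5.22 ± 1.29 CPM in females and 6.51 ± 1.14 CPM in males (log2 difference -0.34, limma adjusted p = 0.422). In the test of whether the genotype difference itself differs by sex, none of the 9 passed (0 also at an unadjusted p under 0.05), and none of the 13184 genes did, of which 4.65% had an unadjusted p under 0.05.

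The genes whose level was most like each member's over the 11 libraries were found by Pearson's r among 12881 genes. They are the highest of many and are given without a p. For Ncan these were Sbno1 (r 0.957, rho 0.882) and Camk2a, a kinase of excitatory synapses (r 0.951, rho 0.90). Camk2a had 175 to 231 CPM in Het and 91.2 to 155 CPM in WT, and Sbno1 had 63.6 to 71.8 CPM in Het and 49.7 to 55.3 CPM in WT. Genes picked for likeness to Ncan tend to share its genotype difference, so these ranges are no separate evidence. For Bcan the most alike genes were Poldip2 (r 0.977) and Sdsl (r 0.955). For Vcan they were Kdm6a, an X-linked histone demethylase (r 0.962), and Phldb1 (r 0.927). For Hapln2 they were Prpsap1 (r 0.946) and Aplp1, an amyloid precursor-like protein gene (r 0.943). Tnr was nearest to Slc6a8, the creatine transporter gene, and Arhgap32 (r 0.915 for both), and Hapln1 to Tent5a (r 0.934) and Nt5dc3 (r 0.926). Hapln4 was nearest to Pdcd11 and Mast1 (r 0.934 and 0.907), Cspg5 to Cideb and Trmt11 (r 0.927 and 0.92), and Ptprz1 to Thpo and Zfp609 (r 0.914 and 0.911).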

How the data were processed

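RNA of 11 mouse hypothalami was sequenced by the authors. The labels name a Zymo kit for RNA and Takara's SMARTer Ultra Low kit for the libraries. The submitters' processing notes name Trimmomatic, Bowtie2, STAR and HTSeq with build mm10, without versions. The deposited table holds log2 CPM after a correction named RUVr in the file name, which subtracts unwanted variation found in model residuals. Its settings and the gene filter are not stated. Every column had the same lowest value, -3.57, and the same upper quartile, 5.47. The back-transformed values less this floor fell within 0.02 of a whole number of steps for 100% of values, with 1 step per library. These are corrected counts, and raw depth is unknown. Over the libraries, the smallest singular value above rounding error was 2.125 and the next 26.95, so 1 direction of variation had been nearly removed before deposit and p-values are too small. Nothing in the labels says whether libraries came from separate litters, so p-values measure only the spread between these animals.

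CPM were recovered from the log2 values by the back-transform, and log2(CPM + 0.5) was modelled in limma 3.58.1 under R 4.3.3 (eBayes with trend) over 13184 genes with a mean of at least 1 CPM, with terms for genotype and sex (their product was added to test the interaction). Two-sided p-values were adjusted over all genes tested (Benjamini-Hochberg), with a threshold of 0.05. Fold changes on this scale understate low genes. The method was tested on simulated data with independent noise in each library. The simulation held no removed direction of variation, so it does not gauge how far the p-values are too small. Coordinates and lengths came from GENCODE M21 of the same build, and promoters from RefSeq. The members, gene lists and the 2 libraries in doubt were chosen with earlier results of these data known. By rule the text names all 10 members, for each the 2 genes outside the list with the highest r (predicted genes left out), and from each matrix list the genes past the threshold or else the 2 with the smallest p. Ranges, ratios, Hapln3, Cspg4, the genes of largest spread and the marker genes named by symbol (Mbp and Avp among them) lie outside this rule. They were added after values were seen. Alternatives covered the pseudocount, filter, scaling, degrees of freedom, blocks, covariates and each library left out.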

Additional observations from a re-analysis of the deposited data

Results flagged for a closer look

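Ncan in the library labelled Het replicate 9, at 184 CPM, stood apart from the other 5 Het libraries, which lay between 148 and 159 CPM. On the log2 scale its gap to the nearest library was 0.687 of the range of the Het group, above Dixon's 95% critical value for 6 samples. It was the single one of the 20 sets of values (10 genes in each of 2 groups) that exceeded the limit, and chance flags about 1 in 20. The same library had the highest level of Myt1l (130 CPM) and the highest sum of striatal markers (4269 CPM), and their part in this value was not tested. Without it the Ncan difference was 0.58 on the log2 scale (limma adjusted p = 0.0107).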

How the results depend on the processing

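Of the 29 alternatives, Ncan passed in 27, with log2 differences of 0.38 to 0.75 over all of them; the exceptions were females alone (0.54) and the striatal mean as a covariate (0.38), where 0 genes of the list passed in place of 1. None of the other 8 genes tested passed in any alternative run. The number of genes past the threshold in the whole table was less steady. For Het against WT, 453 passed (303 higher, 150 lower in Het), against 189 with 1 residual degree of freedom taken off, 229 without the 2 libraries in doubt, 300 with prefix as a block, 9 with the striatal covariate, 200 with no sex term, 0 in females alone, 9 in males alone, 6 within prefix 14308 and 16 within prefix 14309. Leaving out 1 library gave 140 (without WT replicate 6) to 820 (without WT replicate 3). Median centring gave 233 higher and 243 lower genes and quantile normalization 362 higher and 102 lower, with Ncan at 0.60 and 0.66. For females against males, 26 genes passed, against 11 with 1 degree of freedom taken off, 17 without the 2 libraries in doubt, 6 with prefix as a block, 8 with the oligodendrocyte covariate and 10 to 62 when 1 library was left out.

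Differences near 0 changed sign without passing, and the cause was not tested. Ptprz1 was -0.024 with median centring, -0.0016 with prefix as a block, -0.081 in males alone and -0.053 within prefix 14308, and ran from -0.037 to 0.023 when 1 library was left out. Hapln4 was 0.027 without the 2 libraries in doubt, 0.053 with prefix as a block, 0.074 in males alone and 0.20 within prefix 14308, and ran from -0.044 to 0.053 when 1 library was left out. Cspg5 was 0.045 in females alone and 0.075 within prefix 14309. Within prefix 14308, Hapln1 was -0.038, Hapln2 0.38 and Hyal1 -0.052. The striatal marker Adora2a was -0.051 with the striatal mean as a covariate. Per kb of merged exons, Bcan was 47.6, Cspg5 8.83 and Ptprz1 7.31 CPM per kb.

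Replicate numbers 4 and 7 occur in both genotypes. The deviations of same-numbered libraries from their group means had correlations of 0.131 and -0.0919 over 13184 genes, and the labels do not say that a number marks a shared litter, so the numbers do not pair the samples. With the number as a replicate block and no sex term, which leaves 1 residual degree of freedom, 46 genes passed and Ncan was 0.58 (limma adjusted p = 0.00324), while Hapln2 was 0.26, Ptprz1 -0.0047 and B3gat3 0.048. Depth limits Acan most, at 1 to 22 corrected counts per library.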

Other observations

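Apart from 4 Y-linked genes, Hapln2 was exceeded in spread over the libraries by Bpifa1 and by Ttr, the transthyretin gene of choroid plexus, which ran from 1.09 to 12.5 CPM in Het and from 1.51 to 29.9 CPM in WT. The next genes by spread were Lcn2, 0610012G03Rik, Pcsk1n, Cers1 and Wdfy1, in this order. Pcsk1n encodes proSAAS, an inhibitor of a neuropeptide convertase, and Cers1 a ceramide synthase of neurons. All were picked after their values were seen. Pcsk1n had 362 CPM in Het replicate 4, 312 CPM in WT replicate 6, 157 CPM in WT replicate 11 and 115 CPM in WT replicate 4, and 49.6 to 86.2 CPM in the other 7 libraries. Cers1 had 9.48, 5.62, 5.38 and 5.13 CPM in the same 4 libraries and at most 3.86 CPM in the others. Hapln2 was highest in these 4 libraries too, at 20.2, 18.0, 14.6 and 11.9 CPM, and at most 6.79 CPM in the others. The 4 libraries hold 1 Het and 3 WT animals, of which 3 are female. Lcn2, 0610012G03Rik and Wdfy1 did not have these same libraries highest. Lcn2 was highest in WT replicate 7 (7.38 CPM) and Wdfy1 in Het replicate 7 (52.2 CPM). For 0610012G03Rik, WT replicate 4 (25.8 CPM) lay below WT replicate 7 (28.2 CPM).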
